A study of Mus musculus with 3 samples.

Results

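Cd28 and 8 genes of costimulation, Ctla4, Icos, Cd80, Cd86, Icosl, Cd40, Cd274 and Pdcd1lg2, were followed through RNA of stimulated mouse macrophages. The 9 genes were taken by symbol from 55536 annotated genes, and together they have 29 annotated transcripts. Cd28 was selected on its gene level in these same libraries, which was unexpectedly high, so that level is given as a description. The cells were C57BL/6J macrophages grown from bone marrow (BMDM), treated for 25 min with lipid A at 100 ng/ml, and the RNA came from their cytosolic fraction. Lipid A is the membrane anchor of bacterial lipopolysaccharide and activates the receptor TLR4. Total RNA was depleted of ribosomal RNA, from a starting amount of 1 µg. The 3 libraries formed a single group with no unstimulated sample and no other time or cell fraction, so no change with lipid A could be measured. The labels tie all 3 to the same donor record, and differences between libraries may therefore be technical.

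CD28 is the classical costimulatory receptor of T cells. It binds CD80 and CD86 on antigen-presenting cells and signals beside the T cell receptor, while CTLA-4 competes for the same ligands and restrains the response. ICOS is a relative of CD28 with its own ligand, encoded by Icosl, and the ligands PD-L1 (Cd274) and PD-L2 (Pdcd1lg2) bind the inhibitory receptor PD-1. CD40 is a receptor of the TNF receptor superfamily on macrophages, dendritic cells and B cells that is engaged by CD40 ligand on activated T cells. Macrophages are known for the ligand side of these pairs.

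The libraries held 53055764, 43620362 and 38623777 expected counts in libraries 1, 2 and 3, and 3 counts, the limit that a count of 0 allows, stood for 0.0566 to 0.0777 CPM (counts scaled to the library total). Levels are in TPM, which corrects for transcript length and library size. Protein-coding genes held only 22.7, 22.9 and 29.8% of all TPM in libraries 1, 2 and 3, so every TPM below is relative to a total that other RNA dominated and that left more room for coding genes in library 3. All 10 macrophage markers, among them Csf1r, Cd68 and Lyz2, were at or above 1 TPM in every library.

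Cd28 was carried almost wholly by its protein-coding transcript. The gene (ENSMUSG00000026012.2) lies on the plus strand of chromosome 1, at 60716800 to 60773359 of mm10, and GENCODE M21 gives it 3 transcripts. Cd28-201 is the protein-coding one, with 4 exons and 4347 bases, of which 654 bases are coding. Cd28-202 is a processed transcript of 669 bases that begins upstream with exons of its own. Cd28-203, of 1775 bases, is annotated as a retained intron because it runs on past the end of the coding exon it shares with Cd28-201. The exon junctions that distinguish these forms are given here, 15 bases on each side of the boundary, with the bases after the boundary in capitals.
Cd28-201, chr1:60763321-60763335 joined to chr1:60765277-60765291, plus strand: ttattcacataaaagAGAAACATCTTTGTC
Cd28-203, chr1:60763321-60763335 read on into chr1:60763336-60763350, plus strand: ttattcacataaaagGTAACACGCCACTGT
Cd28-201 and Cd28-203, first exon chr1:60746514-60746528 joined to chr1:60762979-60762993, plus strand: cagttcaagtaacagAAAACAAGATTTTGG
Cd28-202, upstream exon chr1:60720563-60720577 joined to chr1:60762979-60762993, plus strand: gttgaattacagagaAAAACAAGATTTTGG
The upper pair differ from the boundary on, spliced in Cd28-201 and read through in Cd28-203. The lower pair end in the same exon and differ in the exon before it, which Cd28-201 and Cd28-203 have in common.

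**Figure D1:**
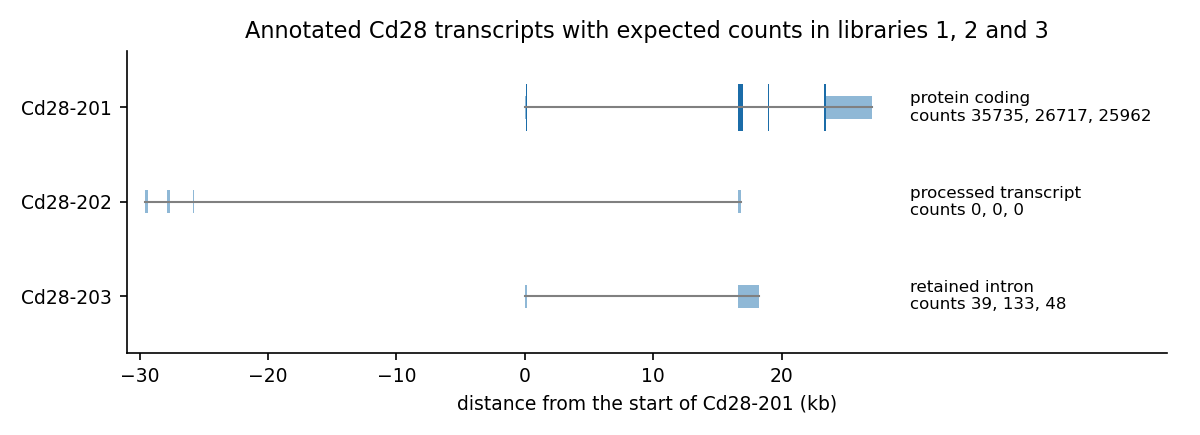
The 3 annotated Cd28 transcripts are drawn to scale against distance from the start of Cd28-201 in kb, with coding exon parts as tall dark boxes, noncoding parts as low pale boxes and introns as lines. The expected counts printed at the right are in the order of libraries 1, 2 and 3, and nearly all of them fall on Cd28-201, whose last exon is mostly noncoding.

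The expected counts of Cd28-201 were 35735, 26717 and 25962 in libraries 1, 2 and 3. Cd28-203 had 38.7, 133 and 47.6 counts, and Cd28-202 had 0 in every library. Cd28-201 thus made up 99.7, 98.7 and 99.5% of the gene's transcript TPM in libraries 1, 2 and 3, a mean of 99.3 ± 0.54% (SD, n = 3). The deposited alignment-free tables, which were made without read alignments, placed the same transcript at 99.7, 98.6 and 99.5% and also gave Cd28-202 a count of 0 in every library. The retained-intron form stood highest in library 2 in both kinds of table, where it reached 1.30% of Cd28 TPM in the alignment-based table. Of the 3 detected genes of the set with several transcripts, Cd28 alone had a leading transcript at 90% or more of its TPM in every library, which 29.8% of 8436 such protein-coding genes also had. A count of 1 in 3 genes is near that share, so it is not a result about the set.

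The sequence of Cd28-201 was not shared with other annotated genes. Of its 4317 distinct stretches of 31 bases, 0 occurred on either strand in a transcript of any other gene, and no annotated gene overlaps Cd28. Cd28-201 also holds 3863 bases that neither of the other Cd28 transcripts has. Most of these lie in its last exon of 3703 bases, and the deposited tables do not give the position of reads within a transcript, so the share of reads over the coding part was not measured.

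Cd28 stood at 84.0, 81.6 and 107 TPM in libraries 1, 2 and 3, a mean of 91.0 ± 14.3 TPM (SD, n = 3). Its rank among 22015 nuclear protein-coding genes was 397, 411 and 421 in libraries 1, 2 and 3, and 98.1% of those genes had a mean TPM at or below its own. The higher TPM of library 3 came with the larger coding share of that library. When TPM was rescaled over protein-coding and long noncoding genes, Cd28 stood at 362, 341 and 348 in libraries 1, 2 and 3, and the alignment-free tables rescaled in the same way gave 362, 339 and 352. Without rescaling, the alignment-free tables listed 39.4, 22.3 and 23.8 TPM, since protein-coding genes held only 10.7, 6.27 and 6.54% of TPM there.

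The 5 protein-coding genes whose levels were most like those of Cd28, by the largest difference in log2(TPM + 0.1) over the 3 libraries, were Hmga1, Shisa5, Tpd52, Erp29 and Ehd4. Those differences were between 0.04 and 0.06 on the log2 scale. Hmga1, which encodes an architectural chromatin protein, was closest, with 86.1, 82.2 and 107 TPM in libraries 1, 2 and 3. Likeness here rests on 3 libraries of a single group and mainly reflects an equal level.

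The genes next to Cd28 did not share its level. Ctla4 and Icos, its relatives in the same cluster of receptor genes, begin 113640 and 204567 bases beyond its end. Ctla4 had 0, 1 and 1 counts in libraries 1, 2 and 3, all under the limit of 3 counts. Icos had 8, 7 and 5 counts, or 0.03, 0.03 and 0.08 TPM. On the other side, Raph1, at a gap of 149695 bases, averaged 14.3 ± 3.36 TPM and Abi2, at a gap of 235641 bases, averaged 5.09 ± 0.94 TPM (SD, n = 3). The nearest gene beyond Cd28 annotated as lincRNA (long intergenic noncoding RNA) was Gm11579. It lies on the opposite strand at a gap of 3305 bases and had 39, 55 and 32 counts.

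The remaining CD28 family receptors were also below 1 TPM in every library. Pdcd1, which encodes PD-1, had 1, 0 and 0 counts, and Btla, an inhibitory receptor bound by HVEM, had 15, 27 and 9 counts in libraries 1, 2 and 3. Without Cd28, the family's summed level was 0.09, 0.19 and 0.14 TPM. Cd28 was thus the sole member of 5 receptors at or above 1 TPM in every library.

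**Figure D2:**
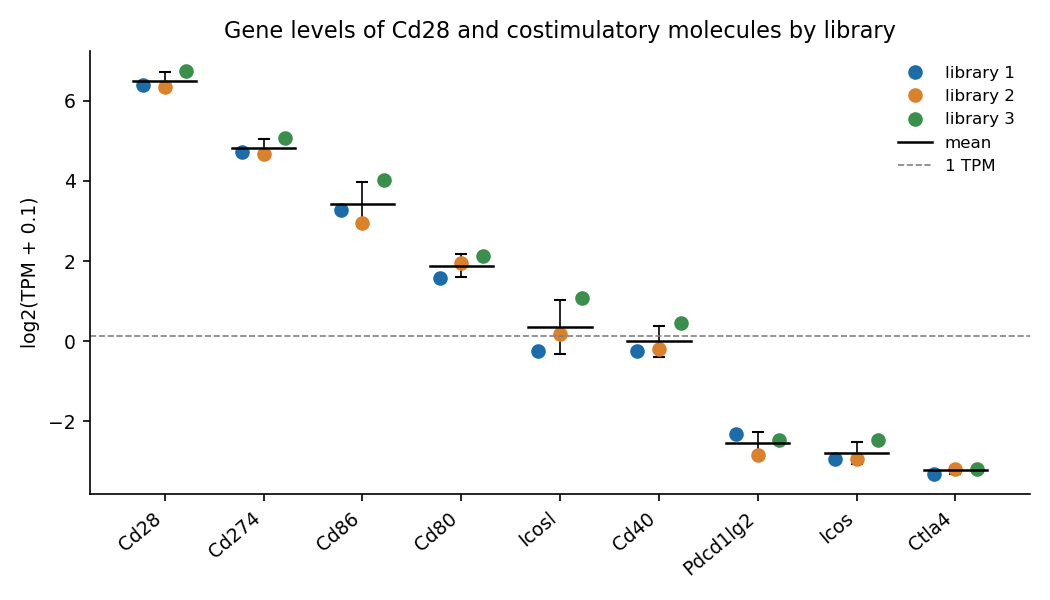
Gene levels on a log2(TPM + 0.1) axis are plotted for the 9 genes, ordered by mean, with a point for each library, a line for the mean and error bars of 1 SD over the 3 libraries. Cd28 lies above every other gene of the set in all libraries, Icosl and Cd40 straddle the dashed line at 1 TPM, and Pdcd1lg2, Icos and Ctla4 lie far below it.

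Of the 9 genes, 4 were detected at 1 TPM or more in every library, namely Cd28, Cd274, Cd86 and Cd80, against 41.3% of all nuclear protein-coding genes (9084 of 22015). Rescaled over protein-coding and long noncoding genes, Icosl and Cd40 passed as well, which made 6. Rescaling raises every level, so the same minimum is looser there, and the share of all genes that pass it was not measured. The order by mean TPM ran Cd28, Cd274, Cd86, Cd80, Icosl, Cd40, Pdcd1lg2, Icos and Ctla4. The ranges of Icosl and Cd40 overlapped, as did those of Pdcd1lg2 and Icos, so these neighbours were not ordered. Within each library the remaining neighbours kept the order given, although Icos and Ctla4 both rested on 8 counts or fewer.

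Cd86 was the more abundant of the 2 ligands of CD28. Its level was 9.66, 7.67 and 16.1 TPM in libraries 1, 2 and 3, with 2034, 1215 and 2132 counts. Cd80 stood at 2.88, 3.79 and 4.25 TPM, with 613, 563 and 523 counts. Every Cd86 value lay above every Cd80 value. The ratio of Cd86 to Cd80 was 3.35, 2.02 and 3.78 in libraries 1, 2 and 3, a mean log2 ratio of 1.53 ± 0.47 (SD, n = 3; scale log2(TPM + 0.1)). The receptor gene exceeded both, with a ratio of Cd28 to Cd86 of 8.69, 10.6 and 6.68, a mean log2 ratio of 3.08 ± 0.33, and a ratio of Cd28 to Cd80 of 29.2, 21.5 and 25.3. Counted as CPM, without the length correction, the log2 ratio of Cd28 to Cd86 was 4.07 ± 0.43.

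The Cd86 gene (chromosome 16, 36603869 to 36666081, minus strand) has a single protein-coding transcript. That transcript, Cd86-201, took 84.9, 78.9 and 95.2% of the gene's TPM in libraries 1, 2 and 3. The rest lay on 3 short processed transcripts, of which Cd86-203 had 33.0, 72.5 and 33.1 counts. Cd86-204 had 32.9, 9.42 and 0 counts, and all of its 548 bases lie within other Cd86 transcripts, so it has no base of its own. The alignment-free tables gave Cd86-201 88.5, 72.6 and 94.1%, lowest in library 2 as well.

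Cd80 (chromosome 16, 38455561 to 38496335, plus strand) was split between forms with the same coding length. Cd80-201 and Cd80-202 each hold 918 coding bases, but Cd80-202 is 3173 bases long and Cd80-201 is 1701. Cd80-201 had 219, 218 and 190 counts and Cd80-202 had 383, 318 and 326, so that the longer form led by counts in every library. Per length, Cd80-201 took 49.7, 48.0 and 50.8% of TPM and Cd80-202 took 43.4, 35.4 and 44.0%. The third form, Cd80-203, leaves out an exon of 282 bases and holds 636 coding bases. The 15 bases before and after that splice are shown because they tell the forms apart, with the bases after the boundary in capitals.
Cd80-201 and Cd80-202, chr16:38474169-38474183 joined to chr16:38479064-38479078, plus strand, exon kept: agttgtccatcaaagCTGACTTCTCTACCC
Cd80-203, chr16:38474169-38474183 joined to chr16:38482620-38482634, plus strand, exon skipped: agttgtccatcaaagCCCCAGAAGACCCTC
The exon-skipping form was the minor one, with 10.8, 26.8 and 7.13 counts. It made up 6.94, 16.6 and 5.18% of Cd80 TPM in libraries 1, 2 and 3, and all of its bases also lie in the longer forms.

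Icosl, the ligand of ICOS (chromosome 10, 78069302 to 78083913, plus strand), was low and partly assigned to retained-intron forms. Its level was 0.75, 1.04 and 2.02 TPM in libraries 1, 2 and 3, from 191, 193 and 282 counts. The coding transcript Icosl-201 had 144, 113 and 180 of these counts. The retained-intron forms Icosl-202 and Icosl-204 together took 26.7, 46.2 and 39.6% of the gene's TPM. Icosl-201 shares its last exon of 1633 bases with Icosl-204 and has only 58 bases that no other Icosl transcript has. In library 1 the deposited bounds of Icosl-204 were 0.08 and 0.31 TPM, so the split between forms is uncertain. No other gene of the set with both kinds of transcript had so large a mean share on forms that are not protein-coding, which averaged 37.5 ± 9.92% for Icosl, 13.7 ± 8.22% for Cd86, 4.27 ± 7.40% for Cd40 and 0.69 ± 0.54% for Cd28 (SD, n = 3).

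Most of these shares were highest in the same library. The share on forms that are not protein-coding was highest in library 2 for Cd28, Cd86 and Icosl in both kinds of table, and 59.5% of 7144 detected protein-coding genes with such a share were also highest there in the alignment-based tables. For Cd40 the alignment-based share was 0, 12.8 and 0% in libraries 1, 2 and 3 and rested on 2.76 counts, and the alignment-free share was 14.9, 20.2 and 27.3%, highest in library 3. The median over those genes was 4.04, 6.67 and 4.05% in libraries 1, 2 and 3. Malat1, a noncoding RNA that is kept in the nucleus, was at 392, 1144 and 374 TPM in libraries 1, 2 and 3. Malat1 shared the maximum in library 2 with the shares of Cd28, Cd86 and Icosl. Between libraries 1 and 3, Malat1 and the Cd86 share were higher in library 1, the Cd28 and Icosl shares in library 3. The part of Malat1 in these shares was not tested. Without library 2, Cd28-201 held 99.6% of Cd28 TPM. None of the 4 detected genes of the set had a leading transcript that was not protein-coding, which was the case for 4.21% of 9079 detected protein-coding genes. For Cd274 and Cd80 the annotation holds only protein-coding transcripts, so their outcome was fixed in advance. With a share this small, 0 of 4 genes is not a result about the set.

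**Figure D3:**
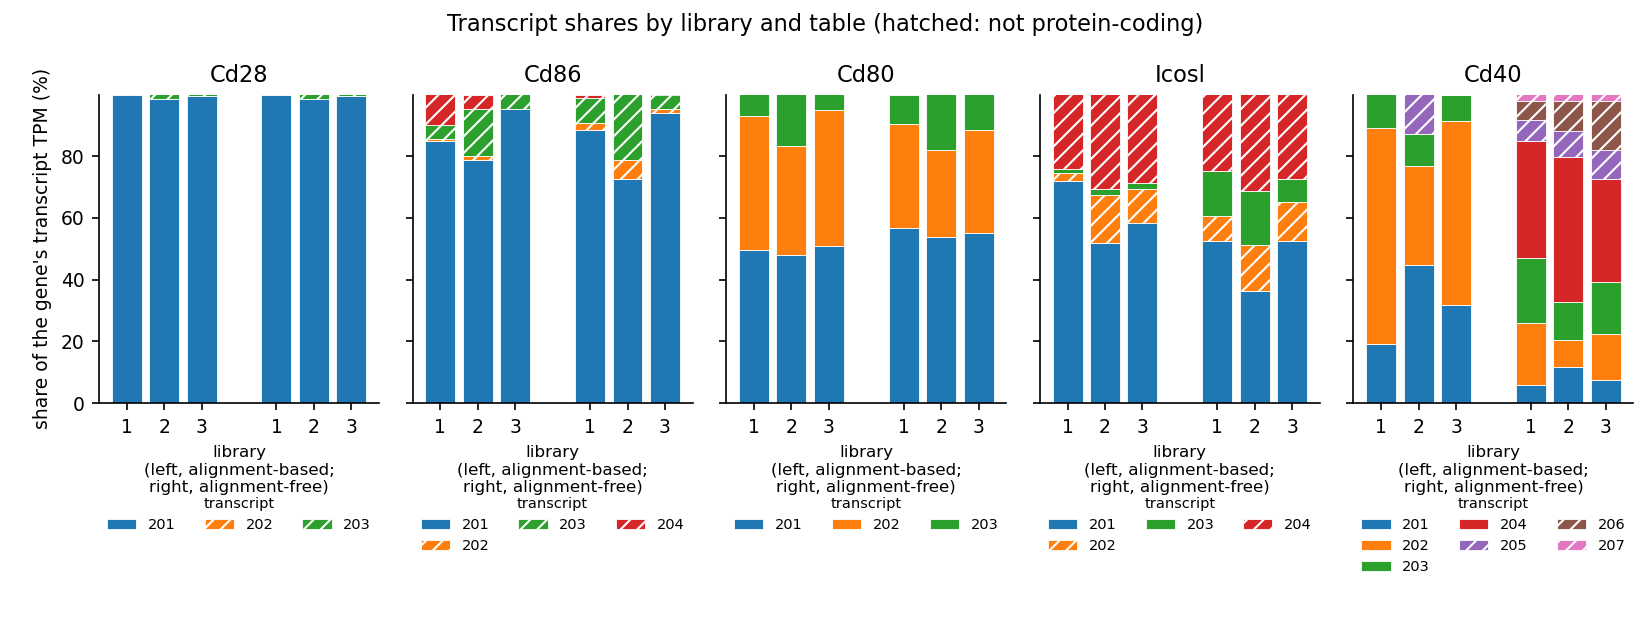
Stacked bars give each annotated transcript's share of its gene's TPM in percent for Cd28, Cd86, Cd80, Icosl and Cd40, with libraries 1 to 3 of the alignment-based tables at the left and of the alignment-free tables at the right of each panel. Hatching marks transcripts that are not protein-coding. Cd28 is filled by Cd28-201 in all 6 bars, while the division of Cd40 differs between the kinds of table.

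Cd274 was the most abundant ligand of the set. It stood at 26.5, 25.4 and 33.8 TPM in libraries 1, 2 and 3, with 9321, 6952 and 6776 counts on its only annotated transcript (chromosome 19, 29367455 to 29388095, plus strand). Pdcd1lg2, the neighbouring gene for the other PD-1 ligand, was at 0.10, 0.04 and 0.08 TPM, with 15, 5 and 7 counts. The ratio of Cd274 to Pdcd1lg2 was 265, 636 and 423. Every Cd274 value lay far above every Pdcd1lg2 value. Its mean log2 ratio was 7.37 ± 0.28 (SD, n = 3), a value that the pseudocount limits, since Pdcd1lg2 was at or under the 0.1 that was added. An antisense gene, AC119228.1, overlaps 511 exon bases of Cd274 and had 628, 1011 and 403 counts. Whether the counting used strand is not given, and 14.6% of the 31-base stretches of Cd274-201 also occur in other genes, so the Cd274 level is less certain than that of Cd28.

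Cd28 and Cd274 kept a nearly fixed ratio. Cd28 was 3.17, 3.21 and 3.18 times as high as Cd274 in libraries 1, 2 and 3, a log2 ratio of 1.67 ± 0.01 (SD, n = 3). This pair was singled out after its values were seen, and 3 libraries of a single group allow no statement on shared control.

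Cd40 was close to the detection level. It stood at 0.74, 0.77 and 1.26 TPM in libraries 1, 2 and 3, with 118, 110 and 129 counts (chromosome 2, 165055627 to 165072948, plus strand). Those counts were spread over several of its 7 transcripts, mainly Cd40-201 and Cd40-202. These forms differ in an exon of 87 bases and in the last exon, which has 2227 bases in Cd40-201 and 933 in Cd40-202. Cd40-201 holds 1294 bases that no other Cd40 transcript has, and Cd40-202 holds 0. The junction at the exon of 87 bases is shown with the bases after the boundary in capitals.
Cd40-201 and Cd40-207, chr2:165066550-165066564 joined to chr2:165069629-165069643, plus strand, exon kept: ctaatgtcatctgtgGTTTAAAGTCCCGGA
Cd40-202, chr2:165066550-165066564 joined to chr2:165069817-165069831, plus strand, exon skipped: ctaatgtcatctgtgAAAAGGTGGTCAAGA
Cd40-201 had 41.0, 77.3 and 64.7 counts and Cd40-202 had 73.2, 27.3 and 61.1. The deposited lower and upper TPM bounds were 0.08 and 0.23 for Cd40-201 and 0.29 and 0.64 for Cd40-202 in library 1. In library 2 they were 0.23 and 0.46 for Cd40-201 and 0.03 and 0.41 for Cd40-202. The intervals overlapped in libraries 2 and 3, and the leading form differed between libraries, so no leading Cd40 form was established at this depth. The alignment-free tables instead put 38.2, 47.0 and 33.6% of Cd40 TPM on Cd40-204, a short transcript of 391 bases annotated as protein-coding, with 0 counts in the alignment-based tables. Its gene level in the alignment-free tables was 1.14, 1.00 and 1.14 TPM, so that Cd40 was detected there in every library. Rescaled over protein-coding and long noncoding genes, Cd40 averaged 3.49 ± 0.51 in the alignment-based tables and 14.2 ± 3.33 in the alignment-free ones (SD, n = 3), so its level depends on the kind of table.

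For this comparison, gene counts were scaled to the total over protein-coding genes of each library in each kind of table. Scaled in this way, those of Cd28, Cd86 and Cd274 depended little on the kind of table. Those of Cd40, Pdcd1lg2, Cd80 and Icosl were lower in the alignment-based tables in every library. Before scaling, the counts of Cd28, Cd86 and Cd274 were also lower in the alignment-based tables in every library. Of the 7 genes with enough counts (a mean of 10 over both tables), 0 lay over 2-fold apart in the same direction in all libraries. The alignment-based tables were over 2-fold above the alignment-free ones for 0.336% of 12198 protein-coding genes and over 2-fold below for 3.88%. With shares this small, 0 of 7 genes is not a result about the set. Cd28 differed by a mean log2 ratio of -0.04 ± 0.01, near the median of -0.01 over those genes. Cd40 had the largest mean difference, -0.67 ± 0.17, with -0.51, -0.85 and -0.63 in libraries 1, 2 and 3, lower in the alignment-based tables each time. Pdcd1lg2, with few counts, differed by -0.15, -0.34 and -0.73, a mean of -0.41 ± 0.29. Cd80 averaged -0.28 ± 0.03 and Icosl averaged -0.29 ± 0.10 (SD, n = 3).

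The spread between libraries divided the set. Among the 6 genes that reached a mean of 10 counts, the SD of log2 CPM was 0.08 for Cd28, 0.08 for Cd274, 0.09 for Cd80, 0.26 for Cd40, 0.47 for Cd86 and 0.49 for Icosl. The median over the 6 genes was 0.18, against 0.12 over all 11649 protein-coding genes that passed the same minimum, without matching on count. Cd86 lay 0.48 below its own mean in library 2 and 0.47 above it in library 3. Icosl and Cd40 were also highest in library 3, by 0.54 and 0.29 above their means. For Cd86, 92.4% of those protein-coding genes had a smaller SD, and for Cd28, 29.9% had. The median of the set was 0.12 without library 3, 0.33 without library 2 and 0.33 from the alignment-free counts.

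**Figure D4:**
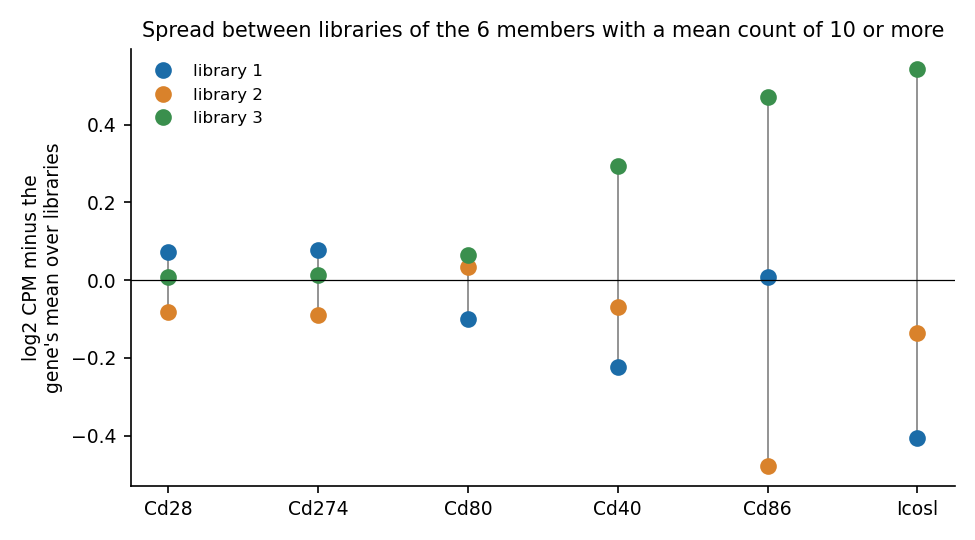
Points give log2 CPM (TMM-scaled) of each library minus the gene's mean over the 3 libraries, for the 6 genes that reached a mean of 10 counts, in order of rising SD, and grey lines span lowest to highest. Cd28, Cd274 and Cd80 stay close to their means, while Cd86 and Icosl each span 0.95 on the log2 scale.

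Genes that carry CD28 signals in T cells were largely present. Of 19 such genes, 15 were detected in every library. Among those detected were the adaptor gene Grb2 at 105 ± 28.6 TPM, the kinase gene Akt1 at 54.7 ± 5.98 TPM and the phosphatase gene Ptpn6 (SHP-1) at 47.1 ± 9.43 TPM (SD, n = 3). Grap2, the adaptor GADS of T cells, averaged 0.32 ± 0.03 TPM. Lck, the kinase that phosphorylates CD28 and the T cell receptor in T cells, had 7, 5 and 5 counts.

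Of 10 genes of the CD40 pathway, 8 were detected in the alignment-based tables, without Cd40 itself, led by Birc3 at 13.6 ± 5.63 TPM, Traf6 at 4.95 ± 0.76 TPM and Birc2 at 4.58 ± 0.76 TPM (SD, n = 3), which encode ubiquitin ligases. Cd40lg, the ligand on T cells, had 1, 1 and 0 counts. Of the 8 ligands of the B7 family, 4 were detected, and the most abundant, above Cd274, was Vsir, which encodes the inhibitory molecule VISTA, at 53.0, 55.0 and 82.1 TPM in libraries 1, 2 and 3. Cd276 (B7-H3) averaged 0.10 ± 0.02 TPM.

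Markers of T cells were measured beside Cd28 because T cells are its best known source. Of 22 T cell markers, 2 were detected, namely Il7r at 26.9, 37.4 and 26.6 TPM and Cd4 at 24.4, 20.9 and 25.2 TPM in libraries 1, 2 and 3, and 13 had 3 counts or fewer in every library. The summed level of all 22 was 52.7, 60.5 and 53.4 TPM, and that of the 20 without Il7r and Cd4 was 1.38, 2.21 and 1.61 TPM. Cd28 had 35774, 26850 and 26010 counts, against 5, 10 and 4.02 counts for the 7 genes of the T cell receptor complex, Cd3e, Cd3d, Cd3g, Cd247, Trac, Trbc1 and Trbc2, together. The ratio of these counts was 7155, 2685 and 6470 in libraries 1, 2 and 3. Of the other T cell markers, Ccr7 had 113, 145 and 87 counts, Lat had 39, 45 and 15 and Cd5 had 23, 24 and 11. The T cell receptor complex genes were at or near 0, whereas Cd4 and Il7r were not. In bulk RNA, few cells with much Cd28 RNA and many cells with little cannot be told apart.

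Markers of other cell types were low with several exceptions. Of 6 plasma and mast cell markers, 0 were detected, with summed levels of 0.51, 1.42 and 0.80 TPM in libraries 1, 2 and 3. Sdc1, which encodes syndecan-1, made up most of that with 132, 258 and 128 counts, while Jchain had 3, 9 and 4 and Cpa3 had 5, 12 and 0. Of 9 dendritic cell markers, 1 was detected, Batf3 at 1.19, 1.52 and 1.52 TPM, and their summed level was 3.10, 5.47 and 4.58 TPM. Itgax, the integrin gene CD11c that macrophages can also express, stood at 0.93, 1.94 and 1.70 TPM. Kit averaged 0.58 ± 0.20 TPM and Siglech averaged 0.40 ± 0.20 TPM (SD, n = 3). Of 7 B cell markers, 2 were detected, the adaptor gene Blnk at 42.8 ± 7.29 TPM and Cd22 at 2.50 ± 0.67 TPM (SD, n = 3). Cd79b had 81, 76 and 68 counts, Cd79a had 6, 8 and 3, and Pax5 had 1, 12 and 0. The summed level of the B cell list was 41.3, 42.3 and 55.5 TPM, nearly all of it Blnk. The part of these cell types in the levels of the set was not tested. The 10 macrophage markers had a median of 91.4, 106 and 139 TPM in libraries 1, 2 and 3, and Cd28 lay below that median in every library.

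**Figure D5:**
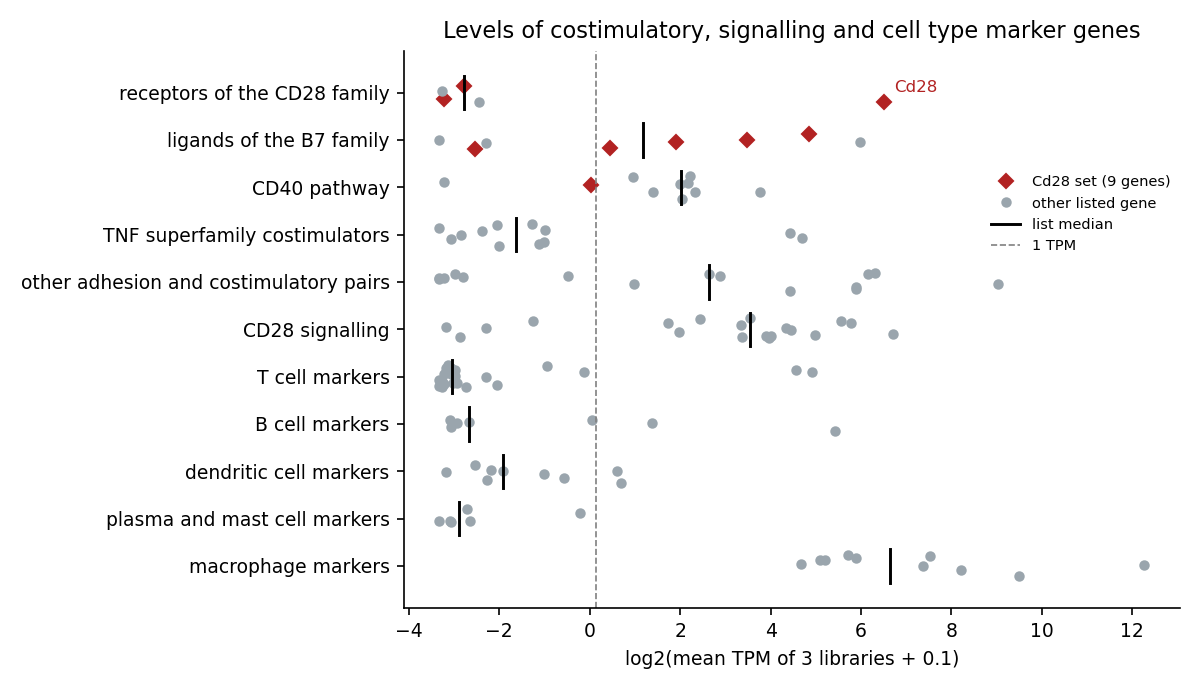
Each point is the mean level of a gene over the 3 libraries as log2(TPM + 0.1), by list, with red diamonds for the 9 genes of the set, grey points for other listed genes, black bars for list medians and a dashed line at 1 TPM. Cd28 stands apart from the other 4 receptors of its family, and all but 2 T cell markers lie left of the dashed line while all macrophage markers lie right of it.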

How the data were processed

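Per library, the authors deposited an alignment-based gene table, an alignment-based transcript table and an alignment-free transcript table, with mm10 and GENCODE M21 named in the deposited text files. Expected counts are, per the file headers, estimated read numbers without normalization, and TPM as deposited by the authors sums over all targets of a table. The deposited bounds of TPM, treated as a score, come with no stated level. The sources used here do not give tools, versions or strandedness. Floors cover counting error only, since reads carry no molecular identifiers.

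Gene and transcript TPM were read for the 9 symbols, and alignment-free transcripts were summed to genes. Detection meant 1 TPM or more in every library. Ratios were differences of log2(TPM + 0.1), which understate folds of low genes. The spread used expected counts rounded to whole numbers, TMM scaling and log2 CPM with a prior count of 2 in edgeR 4.0.16 (R 4.3.3) at a mean count of 10 or more. Python 3.11.15 with pandas 2.3.3 did the rest. Steps were tested on simulated data. Junction sequences and 31-base comparisons used the GENCODE M21 transcript sequences. With a single group no test was made. Members and lists were chosen with earlier results of these data known. Named were all 9 genes, the 3 highest of each list and up to 2 below 1 TPM, the 5 genes most like Cd28 and the 2 nearest coding genes on each side. Pdcd1, the T cell receptor complex genes and Gm11579 were named beside them after their values were seen. Alternatives were DESeq2 1.42.0 size factors, other pseudocounts, minimums and tables, and each replicate left out. No libraries were duplicates, since counts differed between every pair of libraries by 27.2 to 59.7 times the counting variance.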

Additional observations from a re-analysis of the deposited data

How the results depend on the processing

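Of 67 alternatives tried for 9 distinct results, 59 left the value within its spread or its count within 1.5 times, 8 moved it and 0 reversed a direction. Only the log2 ratios have a direction that could reverse. For the median SD of log2 CPM, 0.18, the spread was the SD over the genes tested, 0.20, so large shifts also counted as within it. Cd28 stood at 91.0 TPM in the deposited gene tables, at 28.5 TPM in the alignment-free tables, at 350.2 after rescaling over protein-coding and long noncoding genes, and at 350.7 in the alignment-free tables rescaled in that way, an alternative chosen after seeing the data. The log2 ratio of Cd28 to Cd86 was 4.07 as CPM, which leaves out transcript length. The log2 ratio of Cd274 to Pdcd1lg2 was 6.00 in the alignment-free tables, 4.77 with a pseudocount of 1, 8.49 with a pseudocount of 0.01 and 9.22 as CPM. The shifts with the pseudocount follow from its size beside the 15 counts or fewer of Pdcd1lg2, and the cause of the shift in the alignment-free tables was not tested. Leaving out each replicate in turn moved Cd28 between 82.8 and 95.7 TPM, the share of Cd28-201 between 99.1 and 99.6%, the log2 ratio of Cd28 to Cd86 between 2.92 and 3.25, that of Cd86 to Cd80 between 1.35 and 1.80, that of Cd274 to Pdcd1lg2 between 7.28 and 7.53, the detected genes between 4 and 5 of 9, and the median SD of log2 CPM between 0.12 and 0.33. The number of detected genes was 5 in the alignment-free tables, 6 at 0.5 TPM, 3 at 5 TPM and 6 after rescaling. The shares of all protein-coding genes detected under these alternatives were not measured. Levels of the 8 other genes moved beyond their spread in 24 of 64 alternatives, most of them changes of the TPM total. No paired analysis was possible because the 3 libraries form a single group.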

Other observations

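Of 12 costimulators of the TNF superfamily, 2 were detected in every library. Tnfrsf14, which encodes the BTLA-binding receptor HVEM, stood at 20.3, 20.0 and 37.4 TPM in libraries 1, 2 and 3. Tnfsf9, the ligand of the T cell molecule 4-1BB, stood at 14.9, 10.6 and 38.9 TPM, with 1646, 917 and 2489 counts, highest in library 3, where Cd86, Icosl and Cd40 were also highest. Tnfsf14 averaged 0.41 ± 0.17 TPM and Tnfrsf8 averaged 0.40 ± 0.05 TPM (SD, n = 3). Of 15 genes of other pairs, 9 were detected, led by Sirpa at 519 ± 47.1 TPM, Lgals9 at 79.3 ± 21.8 TPM and Cd47 at 71.0 ± 14.9 TPM (SD, n = 3). Sirpa encodes the inhibitory receptor for CD47. Cd244a averaged 0.62 ± 0.09 TPM and Slamf1 had 8, 9 and 7 counts.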
